A study of Homo sapiens with 4 samples.

Results

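Mitochondrial fatty acid oxidation was followed through 10 human genes in SEM cells. SEM is an established human line of B-lineage acute lymphoblastic leukaemia with the KMT2A-AFF1 (MLL-AF4) gene fusion. The genes were chosen by name for their place in the pathway, with earlier results of these data known. All 10 were found among the 65217 genes of the deposited count table. They cover the carnitine shuttle (CPT1A, SLC25A20 and CPT2), the beta-oxidation cycle (ACADVL, ACADM, ECHS1, HADHA and HADHB) and the electron transfer flavoprotein (ETFA and ETFB). The cells had grown in mice transplanted at 6 to 10 weeks of age (strain not given in the sources used here). Brain and spleen have 2 libraries each, numbered by the occasion on which the experiment was run, and every library holds RNA pooled from 5 mice. Cells labelled as from brain were collected at the leptomeninges, per the protocol, and both sites were enriched for leukaemic cells on a density gradient. Both groups are the same single line with the same fusion, and no treatment is named.

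Long-chain fatty acids cannot cross the inner mitochondrial membrane as coenzyme A esters. CPT1 enzymes on the outer membrane move the acyl group to carnitine, the carrier encoded by SLC25A20 exchanges acylcarnitine for carnitine across the inner membrane, and CPT2 returns the acyl group to coenzyme A in the matrix. Acyl-CoA dehydrogenases, hydratases, hydroxyacyl-CoA dehydrogenases and thiolases then remove acetyl units in a repeating cycle, and the dehydrogenases pass their electrons to the electron transfer flavoprotein, which hands them on to the respiratory chain. The question was whether mRNAs of this pathway differed between leukaemic cells of the central nervous system and those of the spleen.

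The HADHA and HADHB genes are the most closely linked of the set. They encode the alpha and beta subunits of the mitochondrial trifunctional protein, lie head to head on chromosome 2 and point away from each other. Their RefSeq promoter windows, which span 300 bases around each start on GRCh38.p14, share 194 bases, and the 2 starts lie 307 bases apart. They are shown because both genes start within the same short stretch of DNA, and because the ratio of their mRNAs is one of the results. Both are written 5′ to 3′ on the strand of their own gene, chr2:26244583-26244882 on the minus strand for HADHA and chr2:26244689-26244988 on the plus strand for HADHB, and capitals mark the bases that both windows hold.
HADHA: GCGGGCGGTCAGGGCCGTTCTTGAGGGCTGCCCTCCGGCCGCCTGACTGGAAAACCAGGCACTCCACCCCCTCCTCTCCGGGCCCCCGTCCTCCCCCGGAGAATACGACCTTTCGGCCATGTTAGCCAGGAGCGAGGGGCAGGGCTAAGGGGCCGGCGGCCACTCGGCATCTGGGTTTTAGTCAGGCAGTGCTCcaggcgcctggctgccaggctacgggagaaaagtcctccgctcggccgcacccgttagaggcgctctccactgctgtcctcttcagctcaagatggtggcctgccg
HADHB: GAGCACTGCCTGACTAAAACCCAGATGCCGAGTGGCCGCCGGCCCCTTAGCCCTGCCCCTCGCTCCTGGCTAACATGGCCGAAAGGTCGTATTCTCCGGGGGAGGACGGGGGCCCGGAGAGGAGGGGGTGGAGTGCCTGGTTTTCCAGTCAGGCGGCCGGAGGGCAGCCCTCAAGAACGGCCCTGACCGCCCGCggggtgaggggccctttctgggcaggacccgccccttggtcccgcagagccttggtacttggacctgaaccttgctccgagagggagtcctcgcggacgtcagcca

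Of the 10 genes, 0 passed the test between brain and spleen (edgeR's quasi-likelihood test with Benjamini-Hochberg adjustment over 17075 tested genes, adjusted p under 0.05), where 2.02% of all tested genes passed. All 10 passed the filter on low counts. At an unadjusted p under 0.05, 5 were lower in brain, beside 9.94% of all tested genes, and 0 were higher, beside 10.7%. These 5 were CPT1A, SLC25A20, ECHS1, ETFA and ETFB. The log2 fold change was below 0 in 8 of the 10 genes, and in 46.7% of all tested genes. With the replicate number as a block, 2 were lower in brain, CPT1A and ETFB, beside 3.37% of all tested genes. The blocked fit rests almost wholly on a spread shared over all genes, so its passes are hardly measured against a gene's own libraries. By DESeq2 2 were lower, ETFA and ETFB, beside 2.57%. CPM, the counts per 1000000 after library totals were adjusted by TMM factors, did not overlap between the sites in 7 genes, each lower in brain, beside 26.7% of all tested genes; 0 were higher without overlap, beside 30.2%. The median log2 fold change of the 10, brain over spleen, was -0.36, and that of all tested genes was 0.04. Because the 10 genes were chosen with earlier results of these data known, the shares beside them are no test of the set. Leaving out a spleen library changed these counts. Without spleen replicate 1, 6 of the 10 genes passed as lower (beside 18.8% of all tested genes) and 1, ACADM, as higher (beside 19.0%), while without spleen replicate 2 only ETFA and ETFB passed (beside 7.03%, lower in brain).

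**Figure D1:**
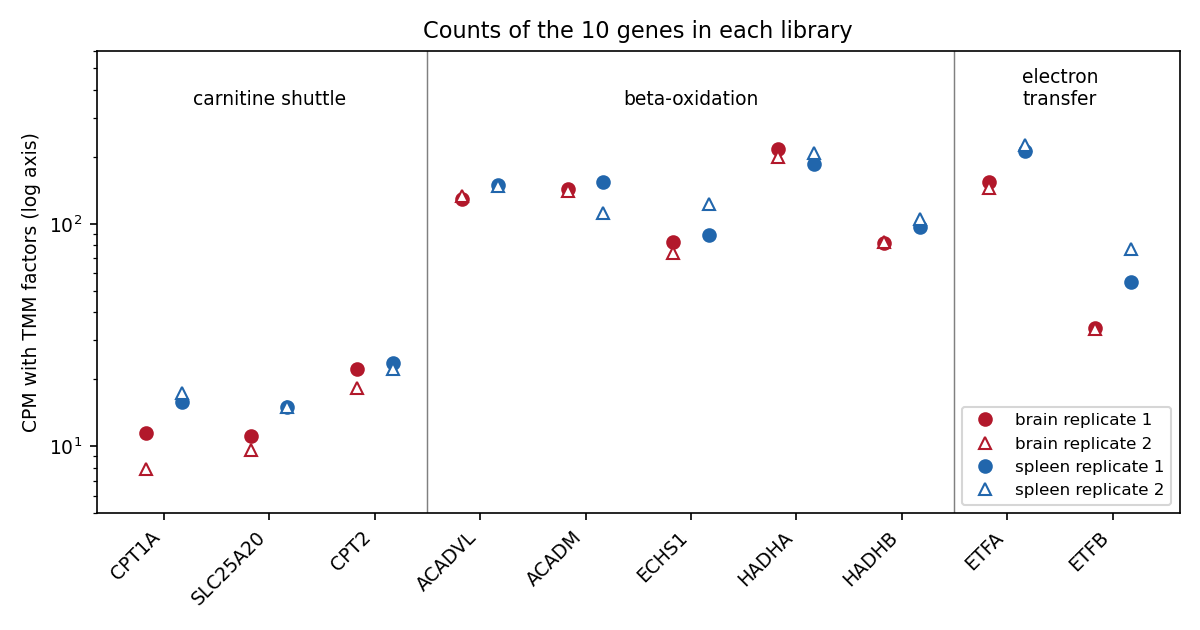
CPM with TMM factors (log axis) of the 10 genes in each of the 4 libraries, brain libraries in red to the left of spleen libraries in blue, filled circles for replicate 1 and open triangles for replicate 2. The brain libraries lie below both spleen libraries in 7 genes, with the widest gaps in ETFB and CPT1A, and the groups overlap in CPT2, ACADM and HADHA.

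The 4 libraries held 36913437 and 33055465 gene counts in brain and 32972842 and 26266136 in spleen, and a count of 0 allows a level of up to 3 counts, at most 0.114 CPM (counting error only). Base composition set spleen replicate 2 apart. Relative to the mean of all libraries, the fifth of genes with the least GC had a median of -0.38 (log2) there and the fifth with the most GC one of 0.16, against -0.07 to 0.15 in the other libraries over the same genes. Mouse transcripts took 2.24% and 1.45% of the counts of the brain libraries, against 4.31% and 6.32% for the spleen libraries. The lymphoblast label held, with 12 of 12 B-lineage markers above 1 CPM and summed levels of 5060 and 4536 CPM in brain and 4086 and 3756 CPM in spleen. FLT3 alone had 2457 and 2096 CPM in brain and 1987 and 1566 CPM in spleen. Single markers differed between the sites in both directions. IGLL1 had 78.9 and 105 CPM in brain and 8.86 and 21.5 CPM in spleen, and CD34 had 135 and 104 CPM in brain and 337 and 280 CPM in spleen. Human erythroid and neural markers summed to at most 0.425 CPM in any library, the myeloid list to between 29.2 and 38.4 CPM and the vessel and meningeal list to 75.4 and 52.1 CPM in brain and 35.1 and 34.3 CPM in spleen, most of it PECAM1. Of the T-cell markers CD3D and CD2 were at 0 in every library, while TRAC had 103 to 138 CPM, and FCGR3A of the myeloid list and SNAP25 of the neural list were at 0. The part of base composition, of host RNA or of these markers in the differences below was not tested beyond the values given. In bulk RNA, fewer cells of a kind and less RNA per cell cannot be told apart.

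The carnitine shuttle was the least abundant step per length. CPT1A, the CPT1 of liver and most other tissues and a rate-controlling step of the pathway (chromosome 11, 68754620 to 68844410, minus strand, GRCh38), had 11.4 and 7.90 CPM in the brain libraries, against 15.7 and 17.3 CPM in the spleen libraries. Both brain libraries were below both spleen libraries. The log2 fold change was -0.77 ± 0.22 (SE; 95% interval -1.29 to -0.26), which did not pass (edgeR adjusted p = 0.119). With occasions as a replicate block it did (adjusted p = 0.0175). Within the first occasion the log2 difference was -0.46 and within the second -1.13. When single libraries were left out, the log2 fold change ran from -1.06 without brain replicate 1 to -0.53 without brain replicate 2. With each library's trend along GC content and transcript length removed, CPT1A and ETFB were the 2 genes that passed, beside 1.35% of all tested genes called lower; CPT1A then had -0.90 (edgeR adjusted p = 0.0430).

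SLC25A20, the carnitine-acylcarnitine carrier (chromosome 3, 48856926 to 48898904, minus strand), had 11.1 and 9.57 CPM in brain and 15.0 CPM in each spleen library. The groups did not overlap, and the log2 fold change was -0.53 ± 0.18 (95% interval -0.96 to -0.11; edgeR adjusted p = 0.163, with the block 0.156). CPT2, the inner-membrane transferase (chromosome 1, 53196792 to 53214197, plus strand), had 22.2 and 18.3 CPM in brain and 23.6 and 22.2 CPM in spleen. Its groups overlapped, with a log2 fold change of -0.18 ± 0.17 (95% interval -0.58 to 0.23, edgeR adjusted p = 0.593), and on the TPM scale the sign turned (log2 fold change 0.027). TPM, the deposited level per transcript, is scaled by transcript length. Here it carries no TMM factors and is a share of human and mouse transcripts together. On that scale the log2 fold changes of all 10 genes lay higher than in the reported test. They were -0.37 for CPT1A, -0.32 for SLC25A20, -0.20 for ECHS1, -0.073 for HADHB, -0.26 for ETFA, -0.74 for ETFB and -0.012 for ACADVL. For ACADM and HADHA they were 0.40 and 0.18. The shift of all tested genes on that scale is not given here. A common shift and changes of single genes were therefore not separated. By TPM, CPT1A had 3.14 ± 0.322 in brain and 4.07 ± 0.320 in spleen (SD over the n = 2 libraries of a site, as below), while SLC25A20 and CPT2 had 9.58 ± 0.386 and 9.31 ± 0.949 in brain, against 12.0 ± 0.524 and 9.15 ± 1.18 in spleen.

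The CPT1 paralogue CPT1B, named for its role in muscle, was listed above CPT1A in every library. Its TPM was 8.62 and 14.3 times that of CPT1A in brain and 7.28 and 6.33 times in spleen. That level is uncertain: the 4 libraries gave between 320 and 611 counts to the read-through CHKB-CPT1B and between 819 and 1114 to CPT1B, and only 68.9% to 78.5% of the counts of CPT1B lay on its coding transcripts. On coding transcripts alone CPT1B had 11.5 and 12.8 TPM in brain and 11.5 TPM in each spleen library, still above CPT1A. CPT1B did not pass between the sites, with a log2 fold change of -0.03 ± 0.17 (edgeR adjusted p = 0.947), which turned positive without spleen replicate 2 (0.082). CPT1C, the brain-type paralogue, had at most 0.162 CPM in any library and was not tested.

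The first step of the cycle is carried out by dehydrogenases of different chain length. ACADVL, for very long chains (chromosome 17, 7217125 to 7225266, plus strand), had 129 and 133 CPM in brain and 150 and 148 CPM in spleen. The groups did not overlap, yet the log2 fold change was only -0.18 ± 0.13 (95% interval -0.49 to 0.12, edgeR adjusted p = 0.465), and it was 0.015 once the GC and length trend was removed. ACADM, for medium chains (chromosome 1, 75724431 to 75787575, plus strand), had 143 and 140 CPM in brain and 154 and 112 CPM in spleen. The brain values lay between those of the spleen libraries. Its log2 fold change was 0.09 ± 0.17 (95% interval -0.31 to 0.49, edgeR adjusted p = 0.802). ACADM has the lowest GC content of the 10 genes, 39.1%. Its sign turned without spleen replicate 2 (log2 fold change -0.11) and with the GC and length trend removed (-0.075). Without spleen replicate 1 the log2 fold change was 0.29.

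ECHS1, the short-chain enoyl-CoA hydratase (chromosome 10, 133362485 to 133373354, minus strand), had 82.6 and 74.3 CPM in brain and 89.0 and 122 CPM in spleen. The spleen libraries differed from each other more than the first of them differed from brain. The log2 fold change was -0.43 ± 0.18 (95% interval -0.85 to -0.01, edgeR adjusted p = 0.235), with -0.11 in the first occasion and -0.72 in the second, and -0.22 with the GC and length trend removed. Without spleen replicate 1 the log2 fold change was -0.69, and without spleen replicate 2 it was -0.17.

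The trifunctional protein carries hydratase and hydroxyacyl-CoA dehydrogenase activity for long chains on its alpha subunit and thiolase activity on its beta subunit. HADHA, the alpha subunit (chromosome 2, 26190635 to 26244672, minus strand), had 216 and 201 CPM in brain and 185 and 209 CPM in spleen. The groups overlapped, with a log2 fold change of 0.08 ± 0.14 (95% interval -0.24 to 0.40, edgeR adjusted p = 0.776) that turned to -0.052 without spleen replicate 1. HADHB, the beta subunit (chromosome 2, 26243170 to 26290465, plus strand), had 81.6 and 82.5 CPM in brain and 96.6 and 105 CPM in spleen. Its groups did not overlap, with a log2 fold change of -0.29 ± 0.14 (95% interval -0.62 to 0.03, edgeR adjusted p = 0.277).

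The ratio of the 2 subunit mRNAs within a library does not depend on how libraries are scaled. HADHA had 2.64 and 2.43 times the counts of HADHB in brain, against 1.91 and 2.00 times in spleen. Both brain ratios were above both spleen ratios. The log2 ratio was 1.34 ± 0.0858 in brain and 0.97 ± 0.0439 in spleen, a difference of 0.38 and 1.30 times as a ratio, which exceeds both SDs. An exact two-sided permutation test gave p = 0.33, the smallest p that 2 against 2 libraries allow. The difference was 0.47 in the first occasion and 0.28 in the second, 0.37 with the GC and length trend removed, and between 0.31 and 0.44 with any of the 4 libraries left out. The order held per length, but with a smaller difference between the sites. TPM ratios were 1.82 and 1.66 in brain, against 1.40 and 1.52 in the spleen libraries. The annotated spans of the genes overlap by 1503 bases on opposite strands, but their exons share 0 bases in GENCODE release 44. Their processed copies (HADHAP1, HADHAP2 and HADHBP1) held at most 1 count in any library.

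**Figure D2:**
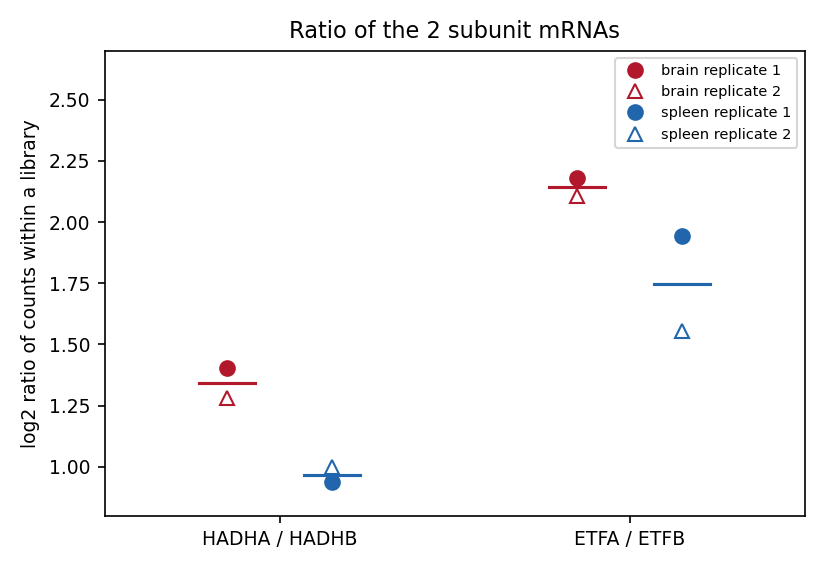
Log2 ratio of counts of HADHA over HADHB and of ETFA over ETFB within each library, brain (red) left of spleen (blue), filled circles for replicate 1 and open triangles for replicate 2, with a line at each group mean. The brain libraries lie above both spleen libraries for each pair, by 0.38 on average for the trifunctional protein and 0.39 for the flavoprotein, where the spleen libraries are spread more widely.

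The electron transfer flavoprotein is a dimer of an alpha and a beta chain that accepts electrons from the acyl-CoA dehydrogenases. ETFB, the beta chain (chromosome 19, 51345169 to 51366388, minus strand), had the log2 fold change farthest from 0 of the 10 genes in the reported test, with 34.1 and 33.8 CPM in brain against 55.0 and 76.8 CPM in spleen. The brain libraries were nearly equal and both spleen libraries were higher. The log2 fold change was -0.96 ± 0.19 (95% interval -1.40 to -0.51), which missed the threshold (edgeR adjusted p = 0.0542). With the replicate block its adjusted p was 0.000638. It was -0.69 in the first occasion and -1.18 in the second. The order of ETFB and CPT1A turned with the GC and length trend removed (-0.68 for ETFB and -0.90 for CPT1A) and without brain replicate 1 (-0.96 for ETFB and -1.06 for CPT1A).

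ETFB has the highest GC content of the 10, 61.0%, and its highest value was in spleen replicate 2. With the GC and length trend removed its log2 fold change was -0.68 and passed (edgeR adjusted p = 0.0271). Without spleen replicate 2 the log2 fold change was also -0.68. ETFA, the alpha chain (chromosome 15, 76188555 to 76311730, minus strand), had 154 and 146 CPM in brain and 212 and 225 CPM in spleen. The groups did not overlap. The log2 fold change was -0.54 ± 0.13 (95% interval -0.85 to -0.23), with edgeR adjusted p = 0.0871 and, with the block, 0.0510, and by DESeq2 it passed (adjusted p = 0.0298). With the GC and length trend removed it was of the same size (-0.54, adjusted p = 0.0545).

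ETFA had 4.53 and 4.31 times the counts of ETFB in brain, against 3.85 and 2.94 times in spleen. The difference in the log2 ratio was 0.39 (exact two-sided permutation p = 0.33, the smallest possible), but it was smaller without spleen replicate 2. It was 0.20 without that library and 0.14 with the GC and length trend removed, while the SD between the spleen libraries was 0.276.

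**Figure D3:**
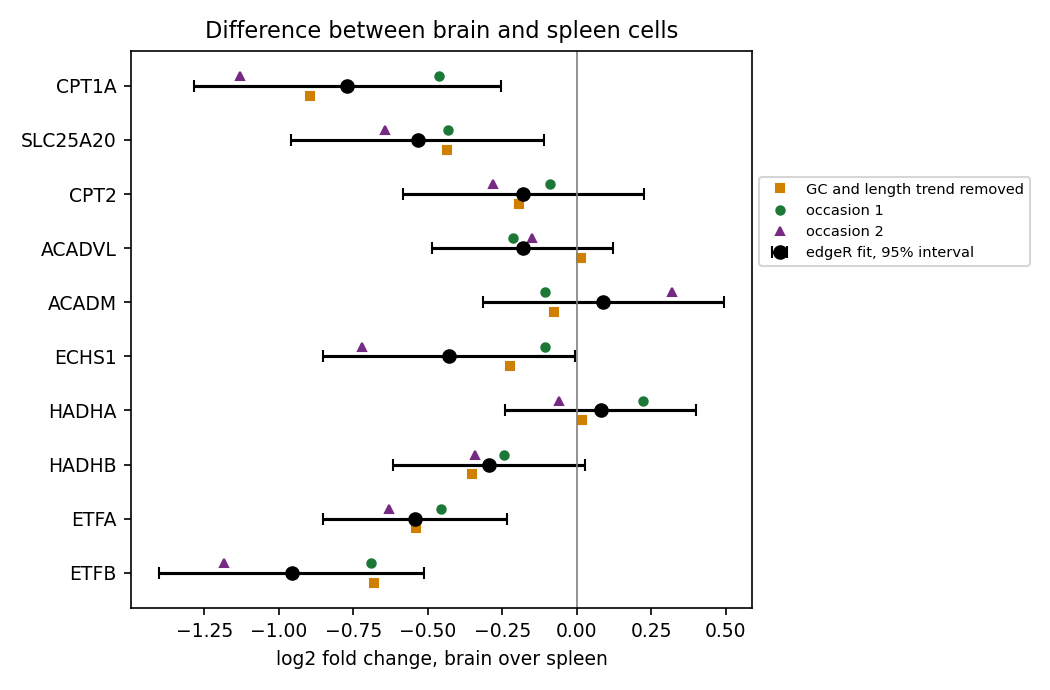
Log2 fold change, brain over spleen, of the 10 genes with the 95% interval of the edgeR fit (black), the value with the GC and length trend removed (orange squares) and the difference within each occasion of the experiment (green circles and purple triangles). The intervals of CPT1A, SLC25A20, ECHS1, ETFA and ETFB lie below 0, those of the other genes include 0, and 0 of the 10 passed after adjustment.

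The log2 fold changes of the 10 genes ran from -0.96 (ETFB) to 0.09 (ACADM). The 95% intervals, which are not adjusted for the number of genes, had a median half-width of 0.40. The difference of ETFB did not pass after adjustment. The spleen libraries differed from each other most in genes at the ends of the range of GC content, but not in all of these. The log2 ratio of spleen replicate 2 over 1 was -0.46 for ACADM, 0.48 for ETFB and 0.46 for ECHS1 (55.0% GC), while it was -0.025 for ACADVL, second highest in GC content at 57.3%, and 0.12 and 0.091 for HADHB and ETFA at 44.3% and 43.7%. It had a Pearson correlation with GC content of 0.68 and a Spearman correlation of 0.41 over the 10 genes, which share the libraries and are not replicates. Between the brain libraries the correlations were -0.05 and 0.01. The fold change itself had a Pearson correlation with GC content of -0.50 and a Spearman correlation of -0.38. The 3 genes whose value moved most when the trend was removed were ETFB, ECHS1 and ACADVL. At their composition and length the trend differed between the sites by -0.26, -0.20 and -0.20. The removal subtracts this trend, so moves of about that size follow from the procedure. The trend was fitted on the same 4 libraries and can hold part of a site difference.

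**Figure D4:**
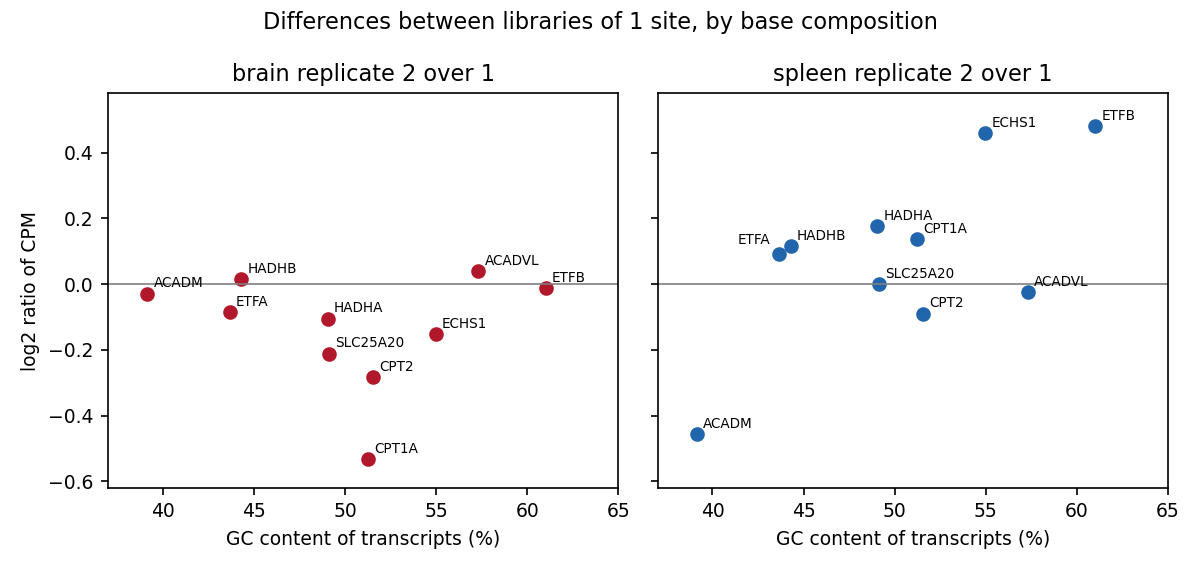
Log2 ratio of CPM between the 2 libraries of a site (left, brain replicate 2 over 1; right, spleen replicate 2 over 1) against the GC content of a gene's transcripts, for the 10 genes. Between the spleen libraries ACADM (39.1% GC) is lowest at -0.46 and ETFB (61.0% GC) highest at 0.48, with ACADVL (57.3% GC) near 0, and between the brain libraries CPT1A is lowest at -0.53.

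Per length and summed over all transcripts of a gene, ETFA had the highest level of the 10 genes, with 207 ± 1.85 TPM in brain and 248 ± 8.78 TPM in spleen. ACADVL followed with 144 ± 20.4 and 145 ± 6.06 TPM. Coding transcripts took only 47.2% to 51.6% of the counts of ETFA and 55.8% to 65.9% of those of ACADVL. The order on coding transcripts alone was not computed. In brain the order went on with ACADM (127 ± 3.07), HADHA (104 ± 1.72), ECHS1 (72.9 ± 2.67), ETFB (60.0 ± 1.62) and HADHB (59.7 ± 2.88), and the last pair overlapped between libraries. In spleen ETFB (101 ± 15.9), ACADM (98.4 ± 29.3), HADHA (91.5 ± 3.22) and ECHS1 (84.0 ± 11.8) followed ACADVL, each overlapping the next, ahead of HADHB (62.7 ± 1.53). The carnitine shuttle summed to 23.2 and 20.9 TPM in brain and 26.2 and 24.2 TPM in spleen, the 5 beta-oxidation genes to 492 and 523 TPM in brain and 497 and 466 TPM in spleen, and the flavoprotein to 267 TPM in each brain library and 344 and 354 TPM in spleen. The brain libraries were below both spleen libraries for the shuttle and the flavoprotein, and for the cycle genes the sites overlapped. The shuttle sum leaves out CPT1B, which over all its transcripts had 29.1 and 41.6 TPM in brain and 28.0 and 27.2 TPM in spleen. The order of the sites with CPT1B added was not computed.

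For most members the counts lay on 1 transcript. CPT2-201 and ECHS1-201 took all counts of their genes, and HADHA-201, HADHB-201 and ETFB-201 took at least 93.2% in every library. ACADVL, ACADM and ETFA were divided. In ACADVL, retained-intron transcripts took 28.1% and 38.2% of the counts in brain, against 28.2% and 26.9% in spleen. The MANE transcript ACADVL-203 took 44.1% and 44.8% in brain and 44.2% in spleen replicate 1, but 24.0% in spleen replicate 2, where ACADVL-205 took 29.5%. In ETFA, transcripts annotated for nonsense-mediated decay took 46.0% and 50.4% in brain, against 47.7% and 48.1% in spleen. In ACADM they took 23.3% and 21.3% in brain and 23.5% and 21.8% in spleen, so neither share separated the sites. ACADM also overlaps RABGGTB on the same strand by 1379 bases, and ACADVL overlaps DLG4 on the other strand by 2717 bases. ETFB overlaps a protein-coding gene without a symbol on the same strand by 16016 bases. That gene had 16 and 19 counts in brain and 28 and 32 in spleen. These are overlaps of gene spans, and shared exon bases were not computed for these genes, so reads there are uncertain.

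Other genes of fatty acid handling were not called either. Of 57 such genes, 48 were tested, 0 passed in either direction (edgeR, adjusted p under 0.05; 2.02% of all tested genes passed), and 5 were higher (beside 10.7% of all tested genes) and 5 lower (beside 9.94%) in brain at an unadjusted p under 0.05, close to the shares over all genes. With the block 4 were higher (beside 7.48%) and 1 lower (beside 3.37%), and by DESeq2 1 was higher (beside 3.63%) and 1 lower (beside 2.57%). Their median log2 fold change was -0.06. The 9 genes too low to test included ACSL6, CD36, CPT1C, CRAT, ACADL, EHHADH, PPARGC1A and PDK4. PDK4, a kinase that restrains pyruvate oxidation and a target of PPAR receptors, had 0 counts in all 4 libraries.

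PPARA, the nuclear receptor that drives transcription of fatty acid oxidation genes in liver, had 41.0 and 33.6 CPM in brain and 18.4 and 23.0 CPM in spleen. Both brain libraries were above both spleen libraries. The log2 fold change was 0.85 ± 0.19, which missed the threshold (edgeR adjusted p = 0.0700). It passed with the block (edgeR adjusted p = 0.00395) and by DESeq2 (adjusted p = 0.0193). When spleen replicate 2 was left out its log2 fold change was 1.03. Its relative PPARD had a log2 fold change of 0.42 ± 0.16 (edgeR adjusted p = 0.192), and of 0.50 without spleen replicate 2. ACACB, the mitochondrial acetyl-CoA carboxylase whose product malonyl-CoA inhibits CPT1, had one of 0.45 ± 0.20 (adjusted p = 0.258). PLIN2 and ANGPTL4, known PPAR targets, had log2 fold changes of 0.01 ± 0.15 and 0.01 ± 0.51, the second at under 1 CPM in every library. Both were named after their values were seen, and the activity of PPARA was not tested.

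In activation and uptake, the acyl-CoA synthetases ACSL3 and ACSL4 had log2 fold changes of 0.69 ± 0.27 and 0.59 ± 0.24 (edgeR adjusted p = 0.223 and 0.235; with the block 0.00778 and 0.0209). Both have low GC content, and without spleen replicate 2 the values were 0.36 and 0.29. With the GC and length trend removed they were 0.39 and 0.17, and neither passed (adjusted p = 0.135 and 0.365). The transporter gene SLC27A4 had -0.59 ± 0.20 (adjusted p = 0.156), and -0.31 without spleen replicate 2. FABP5, a cytosolic fatty acid binding protein, had 118 and 110 CPM in brain and 161 and 160 CPM in spleen (log2 fold change -0.49 ± 0.13, edgeR adjusted p = 0.108, by DESeq2 0.0499). Without spleen replicate 2 its log2 fold change was -0.48.

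Among 14 tested genes of the cycle beside the 5 described, 10 had a negative and 4 a positive log2 fold change. HSD17B10, a matrix dehydrogenase that also serves branched-chain amino acid breakdown, had 51.6 and 47.4 CPM in brain and 67.0 and 86.5 CPM in spleen. Its log2 fold change of -0.63 ± 0.17 passed with the block (edgeR adjusted p = 0.108, with the block 0.0344), and it was -0.42 without spleen replicate 2. ACAD11 had a value of 0.71 ± 0.24 (edgeR adjusted p = 0.163, with the block 0.0242), which was 0.42 without spleen replicate 2, and ACADSB, a dehydrogenase of short branched chains, 0.49 ± 0.30 (adjusted p = 0.404), which was 0.12 without spleen replicate 2 and 0.12 with the GC and length trend removed. ACAA2, the thiolase of medium chains, had 91.6 and 87.1 CPM in brain and 119 and 118 CPM in spleen (-0.41 ± 0.14, adjusted p = 0.152). Its value was also -0.41 without spleen replicate 2. ETFDH, which passes electrons from the flavoprotein to ubiquinone, had a log2 fold change of -0.05 ± 0.21, and of -0.27 without spleen replicate 2, which did not pass either. The peroxisomal genes ACAA1 and HSD17B4 had values of -0.06 ± 0.17 and -0.03 ± 0.15, and the first turned to 0.093 without spleen replicate 2.

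**Figure D5:**
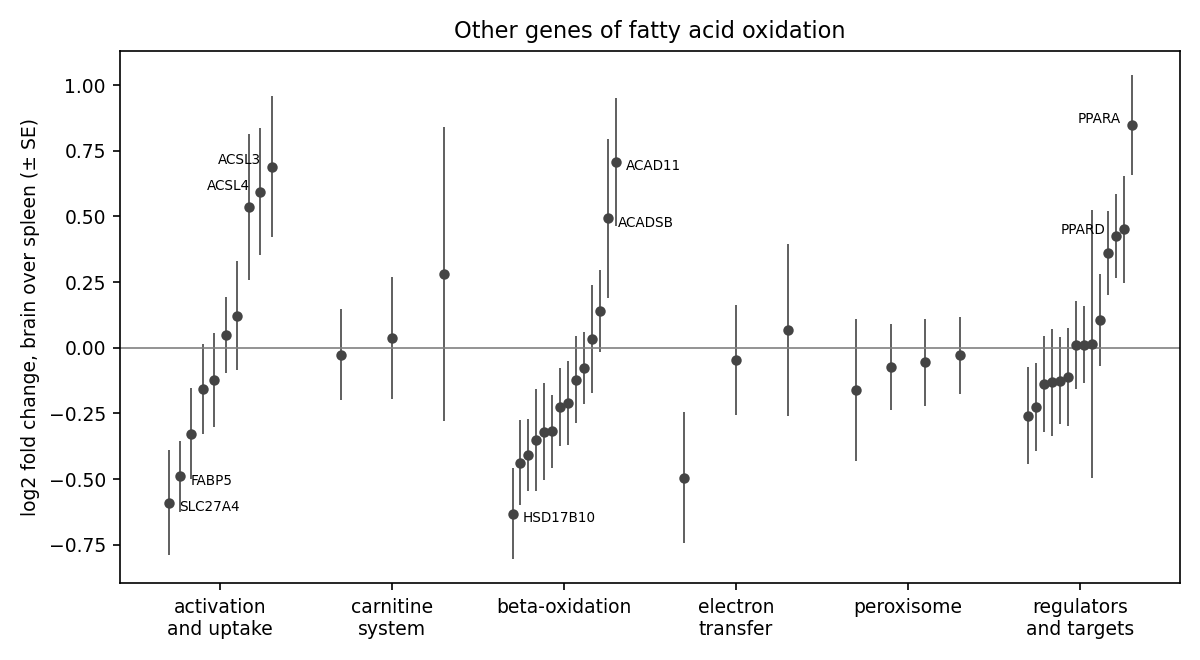
Log2 fold change, brain over spleen, with its standard error for the 48 tested genes of 57 other genes of fatty acid handling, ordered within each role. The points fall on both sides of 0, from -0.63 (HSD17B10) to 0.85 (PPARA), and 0 of the 48 passed the test.

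The median profile of the 10 genes over the 4 libraries, as log2 CPM centred on each gene's mean, was -0.13 and -0.26 in brain, against 0.16 and 0.24 in spleen. Of 9398 other genes of at least 10 CPM, 133 lay within a Euclidean distance of 0.1 of that profile, and the nearest were DCUN1D5, ARF4, ACBD6, RRAS2 and UTP18, at distances of 0.0243 to 0.0374.

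In the RefSeq promoter windows, 12 windows were found for the 10 genes (ACADVL and ETFB have 2 each). Motifs were searched on both strands; the first and second below share the letters AGGTCA, so that a match to both could overlap. The PPAR direct repeat AGGTCANAGGTCA was found in 0 of the 12 windows and in 0.0228% of all 35116 windows, and the element of the oestrogen-related receptors, TCAAGGTCA, in 0 and in 0.353%. The core ACGTG bound by hypoxia-inducible factors was found in windows of 2 genes, ACADVL and ETFB, and in 21.4% of all windows. The ETS element CCGGAAG, bound by GABP, was found in windows of 3 genes, CPT2, SLC25A20 and ETFB, and in 10.3% of all windows. The HADHA and HADHB windows printed above held 0 of the 4 motifs.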

How the data were processed

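RNA was sequenced from SEM cells of transplanted mice in 4 libraries, grouped by their titles into 2 from brain and 2 from spleen. The submitters' processing notes name bcl2fastq 1.8.4, cutadapt 1.5, kallisto 0.42.4, DESeq2 and the builds GRCh38 and GRCm38. Neither the counting strand nor the annotation release is given in the sources used here. Transcript files, as deposited by the authors, give estimated counts and TPM over human and mouse transcripts together, per the file headers. The deposited gene table gives human gene sums of estimated counts, whole numbers without normalization, and another deposited table gives regularised log2 values. In all, 2 columns that match no sample were not used; one of them had entered the computation of the log2 values.

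Symbols and positions were matched by identifier to GENCODE release 44 (GRCh38; 86.4% of identifiers). The main test was edgeR 4.0.16 in R 4.3.3 (quasi-likelihood, robust, TMM factors, filterByExpr), over all 17075 genes that passed the filter, with Benjamini-Hochberg adjustment at 0.05; it was tested on simulated data first. Alternatives were RLE factors, no filter, a mean of at least 5 CPM, DESeq2 1.42.0, the replicate block, removal of smoothed trends with GC content and length through offsets, both together, gene sums of the transcript files, limma 3.58.1 on the log2 values and on log2(TPM + 0.1), and each library left out. A fold change on log2(TPM + 0.1) understates the change of low genes. With 2 against 2 libraries an exact permutation test cannot go below p = 0.33.

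Libraries of 1 site differed beyond sampling (mean chi-square per gene 9.35 in brain and 64.1 in spleen). P-values of the reported test measure the spread between libraries of pooled mice, moderated over genes. The labels state that a number marks an occasion, so it was taken to pair libraries; same-numbered deviations from the site means correlated at 0.0269 (Pearson) and -0.0149 (Spearman) across genes. The blocked fit had a median of 17075 total degrees of freedom, against 7.84 without the block. Its p-values thus rest almost wholly on a spread shared over all genes, and little on a gene's own libraries. For ETFB the standard error was 0.220 with the block and 0.192 without it, although the p was smaller.

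The 10 genes, the lists and the tests were chosen with earlier results of these data known. The text names the 10 genes, per role up to 3 of the 57 other genes with the largest absolute fold change at a mean of at least 5 CPM, and the 5 nearest profiles. FABP5, ACAA2, PLIN2, ANGPTL4, PDK4 and CPT1C were named after their values were seen. Some genes that the rule names are not reported here. Promoter sequences are from RefSeq (GRCh38.p14).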

Additional observations from a re-analysis of the deposited data

How the results depend on the processing

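Over the 10 genes and 14 alternatives, 111 of 140 values kept their direction and their side of the threshold, 22 kept their direction and passed where they had not, and 7 changed sign. The sign changes were of CPT2 on log2 TPM (0.027), ACADVL (0.015) and ACADM (-0.075) with the GC and length trend removed, the same 2 genes with that removal and the replicate block (0.019 and -0.075), ACADM without spleen replicate 2 (-0.11) and HADHA without spleen replicate 1 (-0.052). With a library left out ACADM ran from -0.11 to 0.29 and HADHA from -0.052 to 0.18. The number of the 10 genes called, 0 in the reported test, was 3 with no filter, 2 by DESeq2, 2 with the replicate block, 2 with the GC and length trend removed, 3 with that removal and the block, 1 by limma on the authors' log2 values, and between 0 and 7 with a library left out (7 without spleen replicate 1, 2 without spleen replicate 2). Of the 57 other genes it was 7 with no filter, 2 by DESeq2, 5 with the block, 1 after removal of the trend, 4 with that removal and the block, 1 with gene sums of the transcript files, and 0 to 17 with a library left out (17 without spleen replicate 1, 10 without spleen replicate 2). Of all genes 345 were called (279 higher in brain, 66 lower), and 2123 with no filter (1269 higher, 854 lower), 85 with the stricter filter (78 and 7), 957 by DESeq2 (560 and 397), 1853 with the block (1278 and 575), 749 after removal of the trend (518 and 231), 2321 with that removal and the block (1380 and 941), 31 on log2 TPM, and 417 to 6463 with a library left out. The lone library left at a site is then taken to vary as the libraries of the other site do. The median log2 fold change of the 10 genes was -0.14 on log2 TPM, -0.22 without spleen replicate 2, -0.49 without spleen replicate 1 and -0.25 to -0.42 under the other alternatives. On log2 TPM the median of all tested genes is not given here, so a common shift of that scale was not separated. The cause of these moves was not tested. With 2 libraries a group the value of ETFB, -0.96, was not called by the reported test. Among the 10 genes the block changed the calls of CPT1A and ETFB, and with the GC and length trend removed that of ETFA (adjusted p = 0.0545 without the block and 0.0081 with it).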
